A study of Mus musculus with 4 samples.

Results

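Gzmk-positive cells were defined here as T cells of 3-methylcholanthrene (3-MCA) sarcomas that carried at least 1 unique molecular identifier (UMI, 1 counted transcript molecule) of Cd3e and at least 1 UMI of Gzmk. Of the 21342 Cd3e-positive cells that passed the limits on genes, UMIs and mitochondrial transcripts, among 32525 barcodes in all, 319 cells (1.49%) met this definition. The cells were chosen by their measured Cd3e and Gzmk UMIs, and neither gene is tested below. They came from unconventional αβ T cells (UTCαβ), sorted by the leukocyte marker CD45 and TCRβ and by the lack of TCRγδ, CD4, CD8 and CD11b, from sarcomas that 3-MCA had induced in male C57BL/6J mice. The mice were either Csf3r+/+ or Csf3r-/-. Csf3r encodes the receptor for G-CSF, a growth factor of neutrophils, and mice without it are neutropenic. The deletion is not restricted to T cells. Each genotype was profiled as 2 droplet 3' RNA libraries, called library 1 and library 2 after the number behind the cell barcode, and no label tied these numbers to one tumor. All groups of 4 values below are in the order Csf3r+/+ library 1, Csf3r+/+ library 2, Csf3r-/- library 1 and Csf3r-/- library 2.

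Granzyme K, the product of Gzmk, is a trypsin-like serine protease that killer lymphocytes store in cytotoxic granules together with perforin and the other granzymes. In tumors and in chronic infection, T cells that express Gzmk often co-express chemokines such as Ccl4 and Ccl5, the inhibitory receptor gene Pdcd1 (PD-1) and the transcription factor gene Eomes. Precursor or memory-like T cells are in turn known by Tcf7, Ccr7 and Slamf6, and the receptors of NK cells, such as Ly49 molecules and NKG2D, are shared by many unconventional T cells.

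The libraries held 12483656, 38559291, 18136748 and 23234493 UMIs over 3625, 11512, 7178 and 10210 barcodes. Gzmk-positive cells numbered 162 of 2843 Cd3e-positive cells in Csf3r+/+ library 1, which is 5.70% with an exact Clopper-Pearson 95% interval from 4.87% to 6.61%. They numbered 57 of 6458 cells (0.883%, 0.669% to 1.14%) in Csf3r+/+ library 2. In the Csf3r-/- libraries they numbered 39 of 5215 (0.748%, 0.532% to 1.02%) and 61 of 6826 (0.894%, 0.684% to 1.15%). Csf3r+/+ library 1 thus stood apart from the other 3 libraries, which overlapped in their intervals, and it supplied 50.8% of all Gzmk-positive cells. These intervals cover counting error only, and results are therefore also given without that library where it decided them.

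**Figure D1:**
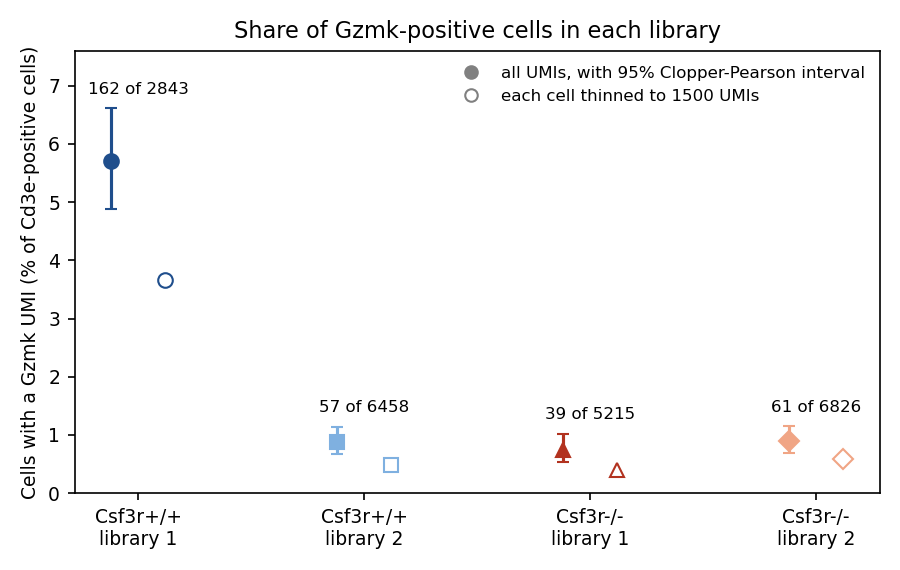
Share of Cd3e-positive cells with a Gzmk UMI (y axis, percent) in each library (x axis). Filled symbols show all UMIs with the 95% Clopper-Pearson interval and open symbols show cells thinned to 1500 UMIs. Csf3r+/+ library 1 lies at 5.70% and the other 3 libraries between 0.748% and 0.894%.

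By genotype, the 2 Csf3r+/+ libraries had a mean share of 3.29% ± 3.41 (SD, n = 2). The mean of the 2 Csf3r-/- libraries was 0.821% ± 0.103 (SD, n = 2). Csf3r-/- minus Csf3r+/+ came to -2.47 percentage points, which is within the spread of the Csf3r+/+ libraries (two-sided exact permutation test, p = 0.667, where 2 against 2 libraries cannot go below 0.333). Without Csf3r+/+ library 1 it was -0.0619 points. When each cell was thinned to 1500 UMIs, which removed the difference in depth, the shares were 3.67%, 0.491%, 0.407% and 0.581%. As a background, barcodes with no Cd3e and at least 5 UMIs of macrophage or B cell markers were counted. They had a Gzmk UMI in 0 of 51, 142, 150 and 141 cases. This allows shares of up to 5.88%, 2.11%, 2% and 2.13% or, over all 484, of up to 0.62%. These barcodes were not free of killer cell genes. They carried Gzmb, the granzyme B gene, in 35.3%, 30.3%, 4% and 14.9% and Prf1, the perforin gene, in 19.6%, 0.704%, 1.33% and 0.709%. Their median depth was 6918, 3857, 1608 and 5050 UMIs. Without thinning, all 4 shares of Gzmk-positive cells were above the pooled limit. Each was below the limit of its own library, where few such barcodes were found. At 1500 UMIs per cell the share of 3.67% was above the pooled limit, and those of 0.491%, 0.407% and 0.581% were below it. That limit came from barcodes without thinning.

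Members carried few Gzmk transcripts. Exactly 1 Gzmk UMI was found in 144 of them (65, 27, 19 and 33 cells) and 2 or more in 175 (97, 30, 20 and 28 cells), with a maximum of 12. Just inside the limit, at 1 Gzmk UMI, Ccl5 was detected in 96.9%, 81.5%, 63.2% and 93.9% of cells, against 99%, 90%, 65% and 96.4% of cells with more. Ccl3 was detected in 29.2%, 7.41%, 0% and 6.06% at 1 UMI and in 42.3%, 16.7%, 5% and 28.6% above it. Both chemokine genes were thus found less often at 1 UMI in each library. At 1500 UMIs per cell this held for Ccl3, but Ccl5 was then found more often at 1 UMI in Csf3r+/+ library 2 (81.5% against 66.7%) and Csf3r-/- library 2 (93.5% against 92.6%). The share with Pdcd1 was lower at 1 UMI in both Csf3r+/+ libraries and higher in both Csf3r-/- libraries. Median depth was higher in Gzmk-positive cells, at 3917, 4956, 3097 and 3617 UMIs, than in the other Cd3e-positive cells, at 3020, 3023, 2236 and 1978 UMIs. A rule that asks for a detected transcript favors deeply sampled cells, and results are given below at matched depth. No barcode was shared between members of different libraries. Members with at least 2 UMIs of macrophage or B cell markers numbered 114, which was 31.5%, 38.6%, 43.6% and 39.3% of members against 28.6%, 16.8%, 35.2% and 33.2% of the other cells. The marker Cst3, which the other Cd3e-positive cells also carried, had 153, 50, 42 and 81 UMIs in members. Apoe (15, 15, 12 and 270 UMIs in members), Cd74 and the MHC class II genes were not counted for this share. Cst3 was counted, so the share was not taken as a measure of macrophage or B cell RNA alone. The part of such barcodes in the results was not tested except where values without them are given. Csf3r itself had 0 UMIs in the members and 1, 3, 2 and 1 UMIs in the other cells, too few to check the genotypes.

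The cells were compared with 2 sets from the same library. The first was all other Cd3e-positive cells (2681, 6401, 5176 and 6765 cells), and the second was cells with at least 5 UMIs of Gzmb, the gene of the granule protease granzyme B, and none of Gzmk (523, 1373, 277 and 361 cells, called Gzmb-high cells). UMIs were summed per library and set, giving 749998, 346412, 171968 and 234744 UMIs for the members, and tested with edgeR's quasi-likelihood test with the library as a block and Benjamini-Hochberg adjustment over all genes. Against the other Cd3e-positive cells, 888 of 9900 genes (8.97%) passed an adjusted p of 0.05, of which 368 (3.72%) were higher and 520 (5.25%) lower in Gzmk-positive cells. DESeq2 with its own size factors called 581 genes, and higher genes made up 56.1% of its calls against 41.4% in edgeR. Against Gzmb-high cells, 678 of 6528 genes (10.4%) passed, 280 (4.29%) higher and 398 (6.1%) lower. Levels below are CPM, that is UMIs of a gene scaled to the summed UMIs of the cells. Fold changes are on the log2 scale, where the median of all genes was -0.09 against the other cells and -0.02 against Gzmb-high cells. Of 133 genes of the lists below that passed against the other cells, 114 also passed without Csf3r+/+ library 1 and 87 of 127 tested after matching on UMIs. Against Gzmb-high cells 96 of 122 list genes also passed without that library.

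Of the 4 genes that had given the cells their working name besides Gzmk (Gzma, Ccl5, Ccl4 and Pdcd1), at least 2 were detected in 86.4%, 63.2%, 53.8% and 78.7% of members. This was the case in 9.96%, 19.9%, 6.49% and 15.5% of the other Cd3e-positive cells and in 23.1%, 23.8%, 22.4% and 29.4% of Gzmb-high cells. This share was thus higher in members in every library and lowest in Csf3r-/- library 1. Ccl4 and Ccl5 alone, however, had lower levels in members than in the other cells of Csf3r+/+ library 2. Because these genes gave the cells their name, with earlier results of these data known, the share is not a test of that name. It was counted without thinning, and members were deeper than the other cells in each library. The name effector cells was not fully covered. Prf1 (perforin) did not pass the test (log2 fold change 1.16, adjusted p = 0.11, edgeR), and in Csf3r+/+ library 2 and Csf3r-/- library 1 many members carried precursor genes, as described below. The cells are therefore called Gzmk-positive cells.

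Gzma, which encodes granzyme A and lies near Gzmk in the genome, was the gene with the largest rise among genes named by the ranking. Its level was 241, 401, 564 and 76.7 CPM in Gzmk-positive cells and 16.9, 32.8, 7.86 and 22.8 CPM in the other Cd3e-positive cells. All 4 libraries were higher without overlap (log2 fold change 3.86 ± 0.38 SE, adjusted p = 4.8e-07, edgeR). Against Gzmb-high cells, at 61.9, 82.2, 65.1 and 150 CPM, the log2 fold change was 1.73 ± 0.40 (adjusted p = 0.014, edgeR), with Csf3r-/- library 2 going the other way, and 1.67 (adjusted p = 0.052) without Csf3r+/+ library 1. Even so, a Gzma UMI was found in only 13%, 22.8%, 28.2% and 8.2% of Gzmk-positive cells.

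Both genes lie on the minus strand of mouse chromosome 13 (GRCm38; GENCODE M21), Gzmk (ENSMUSG00000042385) at chr13:113171608-113225908 and Gzma (ENSMUSG00000023132) at chr13:113093825-113100981, and their annotated starts in RefSeq were 79984 bases apart. Because Eomes, a T-box transcription factor, was seen to be higher in these cells, the promoters of Gzmk, Gzma and, for comparison, Gzmb were searched on both strands for the T-box half-site letters AGGTGT and GTGTGA, which can overlap each other. The windows run from 250 bases before to 50 bases after the RefSeq start (GRCm38.p6) and are written 5′ to 3′ on the strand of the gene, with matches in capitals. They are Gzmk at chr13:113180916-113181215, Gzma at chr13:113100932-113101231 and Gzmb at chr14:56262285-56262584, all on the minus strand. The RefSeq start of Gzmk (chr13:113180965) lies inside its GENCODE span, so its matches hold for the RefSeq start only.
Gzmk: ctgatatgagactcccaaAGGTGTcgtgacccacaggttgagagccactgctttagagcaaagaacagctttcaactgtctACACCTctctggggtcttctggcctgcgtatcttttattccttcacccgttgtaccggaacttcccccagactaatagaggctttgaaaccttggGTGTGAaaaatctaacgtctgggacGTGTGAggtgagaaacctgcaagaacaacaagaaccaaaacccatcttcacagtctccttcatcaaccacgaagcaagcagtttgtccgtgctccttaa
Gzma: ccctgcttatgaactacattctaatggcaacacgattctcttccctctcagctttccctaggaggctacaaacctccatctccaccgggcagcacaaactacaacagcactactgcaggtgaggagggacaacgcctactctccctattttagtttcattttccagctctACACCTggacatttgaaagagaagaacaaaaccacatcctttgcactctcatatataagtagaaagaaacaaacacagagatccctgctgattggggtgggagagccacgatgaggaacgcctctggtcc
Gzmb: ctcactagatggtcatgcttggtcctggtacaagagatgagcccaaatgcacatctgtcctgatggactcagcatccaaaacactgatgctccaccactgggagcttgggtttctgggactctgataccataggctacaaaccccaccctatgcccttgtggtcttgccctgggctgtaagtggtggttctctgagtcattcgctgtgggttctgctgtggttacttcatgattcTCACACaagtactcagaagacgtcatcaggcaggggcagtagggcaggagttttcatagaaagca
The Gzmk window held 4 matches (2 of AGGTGT and 2 of GTGTGA) and the windows of Gzma and Gzmb held 1 each. Among 32851 promoter windows of this length, 25% held at least 1 match of either and 0.244% held at least 4. These matches describe letters only, and binding was not measured.

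The other granzymes differed in direction. Gzmb was at 3063, 543, 890 and 1014 CPM against 864, 909, 277 and 347 CPM in the other Cd3e-positive cells, higher in 3 libraries and lower in Csf3r+/+ library 2 (log2 fold change 1.07 ± 0.28 SE, adjusted p = 0.018, edgeR). At least 5 Gzmb UMIs, the limit of the Gzmb-high set, were found in 80.2% of members in Csf3r+/+ library 1 but in 21.1%, 25.6% and 27.9% in the other libraries, together 169 members. Gzmc, a granzyme gene of strongly stimulated killer cells, was by contrast almost missing. It had 7 UMIs in all members, or 6.67, 2.89, 0 and 4.26 CPM, against 179, 48.7, 12.1 and 39 CPM in the other cells and 645, 113, 97.2 and 269 CPM in Gzmb-high cells. Each library was lower than both sets (log2 fold changes -4.49 ± 0.38 SE, adjusted p = 6.5e-08, and -6.44 ± 0.28, adjusted p = 4.5e-08, edgeR). Of 5 granzyme and perforin genes tested, 2 were higher (Gzma and Gzmb) and 1 lower (Gzmc). Among 11 further granule and death ligand genes, Nkg7, a granule membrane gene, was higher and Srgn, the granule proteoglycan, lower.

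Chemokines of the CCL3, CCL4 and CCL5 group, which attract T cells and myeloid cells, were higher than in the other Cd3e-positive cells, where of 6 chemokine genes tested these 3 were higher and Cxcl10 and Xcl1 lower. Against Gzmb-high cells 2 of 6 were higher and the same 2 lower. Ccl5 was at 21885, 5335, 8042 and 12788 CPM against 3511, 6986, 1740 and 1504 CPM in the other Cd3e-positive cells (log2 fold change 1.92 ± 0.35 SE, adjusted p = 0.00084, edgeR). Ccl4 was at 1352, 101, 407 and 941 CPM against 115, 188, 56.1 and 117 CPM (2.33 ± 0.44, adjusted p = 0.001). Csf3r+/+ library 2 was the exception for both, with lower levels in Gzmk-positive than in other cells. Ccl3, at 491, 60.6, 221 and 136 CPM against 48.1, 49.6, 7.22 and 27.3 CPM, was higher in each library (2.71 ± 0.41, adjusted p = 0.00011, edgeR). Against Gzmb-high cells Ccl3 (1.90, adjusted p = 0.013) and Ccl5 (1.03, adjusted p = 0.032) passed and Ccl4 did not (1.29, adjusted p = 0.074, edgeR). Without Csf3r+/+ library 1 neither Ccl3 nor Ccl5 passed against Gzmb-high cells (adjusted p = 0.12 and 0.13). Xcl1, a chemokine for cross-presenting dendritic cells, was at 97.3, 915, 355 and 230 CPM in members against 2124, 1519, 952 and 958 CPM in Gzmb-high cells, lower in each (-2.17 ± 0.42, adjusted p = 0.0049, edgeR). Against the other Cd3e-positive cells, at 1138, 1478, 267 and 303 CPM, it was higher in Csf3r-/- library 1 and lower in the rest (-1.11 ± 0.35, adjusted p = 0.049), and it did not pass there without Csf3r+/+ library 1 (-0.41, adjusted p = 0.16) or after matching on UMIs (-1.44, adjusted p = 0.075, edgeR). Cxcl10, an interferon-induced chemokine gene, was at 41.3, 248, 58.2 and 42.6 CPM against 247, 279, 171 and 174 CPM in the other cells, lower in each library (-1.51 ± 0.26, adjusted p = 0.00042, edgeR). Ifng, the gene of interferon-γ, had 329, 162, 122 and 111 CPM in members, 177, 295, 48.4 and 76 CPM in the other cells and 353, 472, 221 and 236 CPM in Gzmb-high cells. It did not pass against the former (0.35 ± 0.25, adjusted p = 0.5) and was lower than in the latter in all 4 libraries (-0.91 ± 0.21, adjusted p = 0.014, edgeR).

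**Figure D2:**
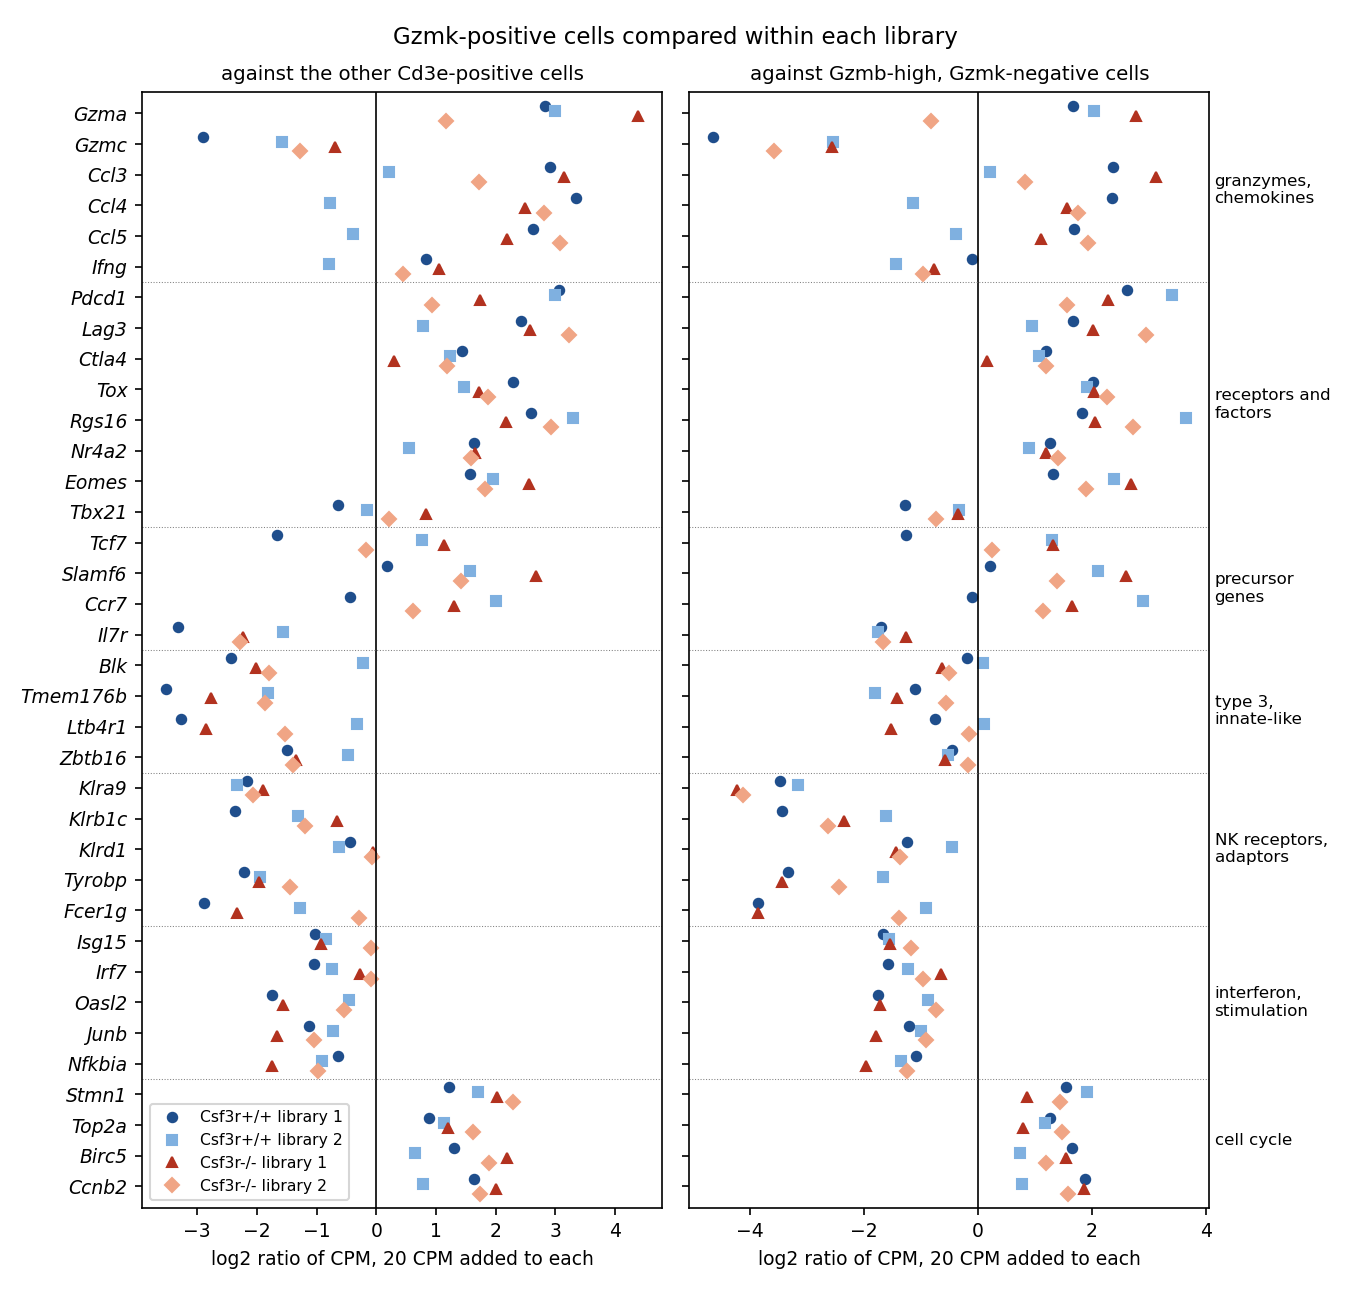
log2 ratio of CPM (x axis, 20 CPM added to each level) of Gzmk-positive cells to the other Cd3e-positive cells (left) and to Gzmb-high, Gzmk-negative cells (right) for selected genes (y axis), with 1 symbol per library. Pdcd1, Tox, Rgs16 and Eomes lie right of 0 in all 4 libraries on both sides, whereas Ccl4 and Ccl5 lie left of 0 in Csf3r+/+ library 2.

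Several inhibitory receptors were higher. Of 16 tested against the other Cd3e-positive cells, 7 were higher (Pdcd1, Lag3, Havcr2, Ctla4, Entpd1, Cd200 and Klrg1). The 2 lower ones were Cd96 and, not after matching on UMIs, Vsir. Over all 16 the median log2 fold change was 0.83. Cd200 rested on 5, 5, 5 and 1 UMIs in members, and neither Cd200 nor Entpd1 was tested after matching on UMIs. Pdcd1, the gene of PD-1, was at 433, 378, 302 and 567 CPM against 34.6, 30.2, 76.4 and 286 CPM in the other cells and 53.7, 17.4, 46.2 and 178 CPM in Gzmb-high cells. Lag3, which encodes an MHC class II-binding inhibitory receptor, was at 235, 28.9, 157 and 234 CPM against 27.4, 8.54, 9.65 and 7 CPM in the other cells and 59.9, 5.23, 23.6 and 12.9 CPM in Gzmb-high cells. By these levels both genes were higher in every library against both sets. In Csf3r+/+ library 2 Lag3 rested on 10 UMIs in members. When cells were thinned to 1500 UMIs, Lag3 was detected in 30%, 0%, 21.6% and 22.4% of members. The shares were then 3.05%, 1.12%, 0.927% and 0.587% in the other cells and 7.36%, 0.441%, 2.55% and 0.587% in Gzmb-high cells. Members of Csf3r+/+ library 2 were thus below both sets at that depth, and those of the other libraries were above them. The log2 fold changes against the other cells were 2.53 ± 0.31 SE for Pdcd1 (adjusted p = 7e-06) and 3.53 ± 0.32 for Lag3 (adjusted p = 2.6e-07, edgeR), and those against Gzmb-high cells were 2.85 ± 0.31 and 2.59 ± 0.29 (adjusted p = 9.3e-05 and 0.00011). Without Csf3r+/+ library 1 the values against the other cells were 2.05 for Pdcd1 and 3.70 for Lag3 and still passed. Havcr2 (TIM-3), Klrg1 and Entpd1 (CD39) rested on that library, since without it their log2 fold changes were 0.68, 0.70 and 1.30 (adjusted p = 0.76, 0.66 and 0.33, edgeR). Against Gzmb-high cells 3 of 12 inhibitory receptors were higher (Pdcd1, Lag3 and Ctla4) and 3 lower (Cd96, Pdcd1lg2 and Cd274). Pdcd1 and Tox were detected together in 49.4%, 36.8%, 28.2% and 50.8% of members.

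Among genes that mark chronically stimulated T cells more were higher than lower. Of 14 exhaustion and dysfunction genes tested, 6 were higher against the other Cd3e-positive cells (Tox, Nr4a2, Batf, Ikzf2, Rgs16 and Tnfrsf9) and 2 lower (Nr4a1 and Nrp1). Batf (0.47, adjusted p = 0.27) and Ikzf2 (0.41, adjusted p = 0.14) did not pass without Csf3r+/+ library 1, and Batf (0.71, adjusted p = 0.058), Ikzf2 (0.49, adjusted p = 0.066), Nr4a1 (-0.71, adjusted p = 0.11) and Nrp1 (-0.75, adjusted p = 0.14) did not pass after matching on UMIs (edgeR). Tox, a nuclear factor of persistent T cell stimulation, was at 283, 136, 244 and 290 CPM against 42.2, 36.5, 60.4 and 64.8 CPM in the other cells and 54.2, 21.1, 44.3 and 44.5 CPM in Gzmb-high cells. Rgs16, a regulator of chemokine receptor signaling, was at 265, 387, 98.9 and 268 CPM against 27.4, 21.5, 6.29 and 17.9 CPM in the other cells. Neither gene overlapped between the sets. Their log2 fold changes against the other cells were 2.17 ± 0.18 SE and 3.74 ± 0.18 (adjusted p = 6.5e-08 and 1e-11), and against Gzmb-high cells 2.46 ± 0.15 and 3.37 ± 0.36 (adjusted p = 6.7e-07 and 7e-05, edgeR). Against Gzmb-high cells 4 of 12 genes of this list were higher (Tox, Nr4a2, Ikzf2 and Rgs16) and Nr4a1 was lower. Among 12 costimulatory receptors 5 were higher (Cd27, Tnfrsf9, Slamf6, Slamf7 and Crtam) and 4 lower (Icos, Tnfrsf18, Cd226 and Cd40lg). Crtam did not pass after matching on UMIs (1.16, adjusted p = 0.092), and Tnfrsf18 passed neither then (-0.46, adjusted p = 0.088) nor without Csf3r+/+ library 1 (-0.55, adjusted p = 0.076, edgeR).

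Of the T-box factors that drive killer cell programs, Eomes and Tbx21 differed. Eomes was at 70.7, 193, 157 and 76.7 CPM against 10.7, 35.1, 10 and 7.25 CPM in the other Cd3e-positive cells and 16.3, 20.9, 7.55 and 6 CPM in Gzmb-high cells, higher in every library (log2 fold changes 2.95 ± 0.24 SE, adjusted p = 5.9e-08, and 3.02 ± 0.28, adjusted p = 3.6e-05, edgeR). Tbx21, which encodes T-bet, was at 17.3, 46.2, 46.5 and 21.3 CPM against 71, 63.2, 65.1 and 48.8 CPM in Gzmb-high cells. It was lower in each library (-1.19 ± 0.27, adjusted p = 0.014, edgeR), a difference that did not pass without Csf3r+/+ library 1 (-0.71, adjusted p = 0.14). Against the other Cd3e-positive cells Tbx21 did not pass (-0.23, adjusted p = 0.77). Both genes were detected in the same cell in 16 members. Eomes was the only one of 12 effector differentiation factors that was higher, whereas Id2 and Klf6 were lower. Klf6 did not pass after matching on UMIs (-0.36, adjusted p = 0.25, edgeR). Against Gzmb-high cells 6 of 11 such factors were lower, among them Id2, Hopx and Bhlhe40, and 3 without Csf3r+/+ library 1, where Hopx did not pass.

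Other genes with large changes by the ranking belonged to none of the lists. Mt1, a metallothionein gene of metal binding, was at 76, 77.9, 69.8 and 98 CPM against 7.6, 11.3, 2.36 and 22.7 CPM in the other cells (log2 fold change 2.99 ± 0.31 SE, adjusted p = 1e-06, edgeR). Cd55, the complement decay-accelerating factor, was at 128, 60.6, 52.3 and 29.8 CPM against 10.6, 16, 8 and 5.75 CPM (2.70 ± 0.31, adjusted p = 3.7e-06). Both were higher in each of the 4 libraries. Tbc1d4, a regulator of vesicle traffic, and the histone genes Hist1h2ae and Hist1h1b, with log2 fold changes of 2.70, 2.61 and 2.50, were ranked as well. After matching on UMIs Mt1 was at 1.85, Hist1h2ae at 1.23 and Hist1h1b at 1.24, all of which passed (adjusted p = 0.0064, 0.012 and 0.035, edgeR). Across the alternative settings Cd55 ranged from 1.28 to 3.08 and Tbc1d4 from 1.61 to 3.21, and neither passed in every one. Against Gzmb-high cells Ccna2, a cyclin gene, was ranked at 2.19. Among lower genes outside the lists, Qpct, a glutaminyl cyclase gene (-3.48), Rnase4, a ribonuclease gene (-3.18), and Ckb, a creatine kinase gene (-2.78), were ranked against the other cells, and the interferon-induced Ifitm2 (-4.75) and the stress-induced factor gene Atf3 (-2.63) against Gzmb-high cells.

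Gzmk-positive cells were not uniform, and the mix differed between libraries. Tcf7, which encodes TCF-1, a factor of naive, memory and precursor T cells, was detected in 4.9%, 64.9%, 38.5% and 18% of members, against 26.3%, 36.4%, 20.7% and 13.5% of the other Cd3e-positive cells. Csf3r+/+ library 1 was low and Csf3r+/+ library 2 was high, on opposite sides of their other cells. Tcf7 therefore showed no common change (log2 fold change -0.01 ± 0.33 SE, adjusted p = 1, edgeR). Without Csf3r+/+ library 1 it was 0.60 (adjusted p = 0.072) against the other cells and 1.18 (adjusted p = 0.0052) against Gzmb-high cells. Ccr7, the lymph node homing receptor gene, was at 1.33, 572, 116 and 68.2 CPM against 8.81, 128, 35.2 and 37.7 CPM, and Slamf6, a receptor gene of precursor cells, at 22.7, 156, 221 and 63.9 CPM against 17.5, 39.1, 17.5 and 11.3 CPM. Both passed (1.27 ± 0.30, adjusted p = 0.0073, and 2.08 ± 0.32, adjusted p = 0.00014, edgeR), Ccr7 with a lower level in Csf3r+/+ library 1 and not after matching on UMIs (0.93, adjusted p = 0.065). Il7r, the survival receptor gene of memory T cells, went against these. It was at 12, 104, 87.2 and 102 CPM, below the 299, 347, 483 and 577 CPM of the other cells in each library (-2.77 ± 0.26, adjusted p = 3e-07, edgeR), as it was below Gzmb-high cells (-2.05 ± 0.19, adjusted p = 2.8e-05). Of 14 memory and precursor genes tested, 1 was higher (Ccr7) and 4 lower (Il7r, Klf2, Klf3 and Satb1). Klf3, with 6 UMIs in members, passed neither after matching on UMIs (adjusted p = 0.083) nor without Csf3r+/+ library 1 (adjusted p = 0.086, edgeR), and without that library 4 genes of this list were higher (Ccr7, Lef1, Id3 and Cxcr5).

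Members with and without Tcf7 differed in the genes found beside it. The 71 members with a Tcf7 UMI (8, 37, 15 and 11 cells) carried Gzmb in 62.5%, 29.7%, 33.3% and 63.6%, against 96.8%, 65%, 62.5% and 66% of the 248 members without it (154, 20, 24 and 50 cells). Ccl4 was found in 25%, 16.2%, 13.3% and 27.3% beside Tcf7 and in 59.7%, 30%, 41.7% and 52% without it. Both genes were thus found less often beside Tcf7 in each library, Gzmb by little in Csf3r-/- library 2. Slamf6 was found more often beside Tcf7, in 12.5%, 67.6%, 86.7% and 27.3% against 8.44%, 15%, 20.8% and 12%. Eomes was likewise found in 37.5%, 62.2%, 60% and 45.5% against 25.3%, 40%, 12.5% and 18%. Pdcd1 went both ways, in 50%, 59.5%, 46.7% and 72.7% beside Tcf7 and in 68.8%, 15%, 29.2% and 68% without it. Tox was found more often beside Tcf7 in each library, in 87.5%, 62.2%, 46.7% and 63.6% against 68.2%, 20%, 45.8% and 56%, which in Csf3r-/- library 1 was a difference of less than 1 cell. Some of these groups held few cells, and the Tcf7-positive members were deeper in 3 of 4 libraries (median 4755, 7109, 3024 and 4064 UMIs against 3864.5, 2884.5, 3147 and 3507.5), so they are a description without a test.

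**Figure D3:**
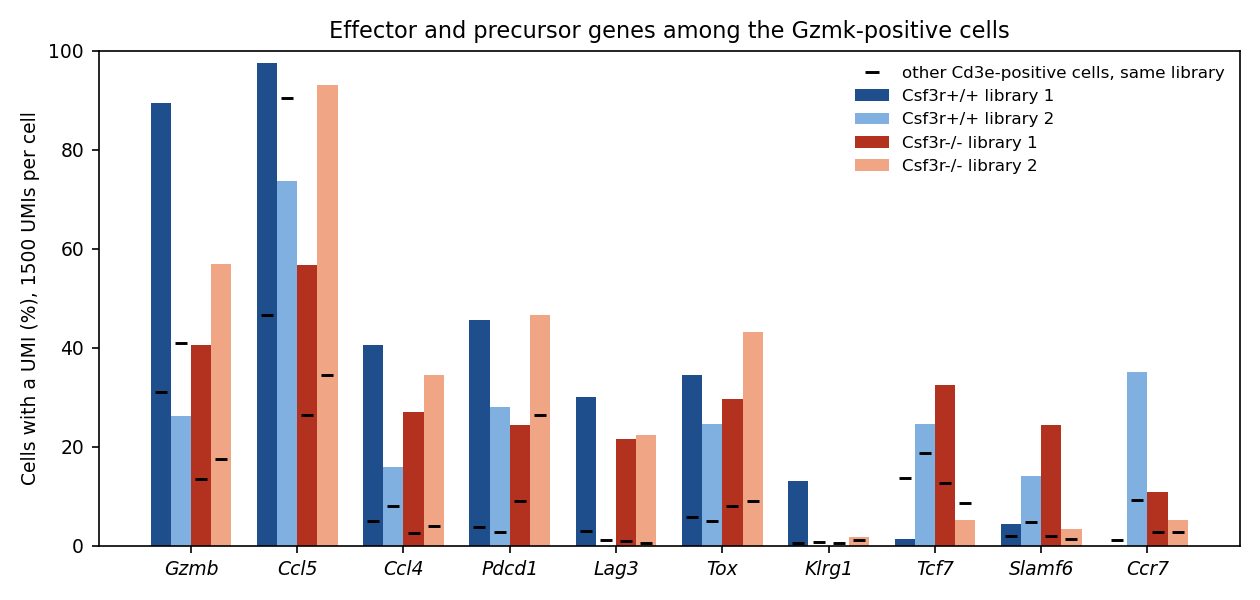
Percent of Gzmk-positive cells with a UMI of each gene (y axis) after thinning each cell to 1500 UMIs, with 1 bar per library and black dashes for the other Cd3e-positive cells of that library. Gzmb and Ccl5 are highest in Csf3r+/+ library 1, and Tcf7, Slamf6 and Ccr7 are higher in Csf3r+/+ library 2 and Csf3r-/- library 1.

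At a fixed depth of 1500 UMIs per cell Tcf7 was detected in 1.2%, 24.6%, 32.4% and 5.2% of members, against 13.6%, 18.8%, 12.7% and 8.72% of the other cells. In Csf3r-/- library 2 members were thus below the other cells at this depth and above them without thinning, whereas the other 3 libraries kept their direction. Gzmb was detected in 89.4%, 26.3%, 40.5% and 56.9% of members. Pdcd1 was detected in 45.6%, 28.1%, 24.3% and 46.6%. As a background, Tcf7 was detected without thinning in 11.8%, 14.1%, 3.33% and 3.55% and Pdcd1 in 1.96%, 0.704%, 4% and 10.6% of the barcodes with macrophage or B cell transcripts and no Cd3e, so that the Tcf7 share of members in Csf3r+/+ library 1 was below this background. For Ccl5 this background was 33.3%, 65.5%, 10% and 44.7%, below the unthinned 98.1%, 86%, 64.1% and 95.1% of members in each library. In Csf3r+/+ library 2, however, the other Cd3e-positive cells carried Ccl5 in 91.8%. As above, the background barcodes also carried killer cell genes.

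Type 3 genes were lower in Gzmk-positive cells. All 14 type 3 genes tested against the other Cd3e-positive cells passed as lower, with a median log2 fold change of -2.62, and of 13 tested after matching the other cells on UMIs 12 did. The exception was Serpinb1a, a serpin gene, which was also higher in the members of Csf3r+/+ library 2, at 60.6 CPM against 29.9 CPM. Blk, a Src-family kinase gene of interleukin-17 producing lymphocytes, had 20 UMIs in the members, or 1.33, 2.89, 34.9 and 51.1 CPM, against 95.3, 6.79, 201 and 228 CPM in the other cells (-3.01 ± 0.35 SE, adjusted p = 4.1e-06, edgeR). Il17a, the gene of interleukin-17A, was at 0, 0, 17.4 and 396 CPM against 11.5, 7.99, 230 and 1356 CPM (-2.36 ± 0.30, adjusted p = 1e-05). Both genes were lower in every library, although Il17a remained in members of Csf3r-/- library 2. Tmem176b, a membrane protein gene of type 3 lymphocytes that overlaps Tmem176a in the genome so that reads may be shared, was at 77.3, 37.5, 151 and 298 CPM against 1101, 182, 1152 and 1142 CPM (-2.85 ± 0.22, adjusted p = 5.3e-08, edgeR). Among 10 innate-like T cell genes, 8 were lower, including Zbtb16, which encodes PLZF (-2.32 ± 0.30, adjusted p = 1.7e-05), Il18r1 and Cxcr6, and Plac8 was higher. After matching on UMIs 6 were lower, and Il12rb1 (-0.66, adjusted p = 0.18) and Drosha (-2.68, adjusted p = 0.058) did not pass. Against Gzmb-high cells 4 of 10 type 3 genes and 5 of 10 innate-like genes were lower and none was higher, and Zbtb16 did not pass (-1.01, adjusted p = 0.084, edgeR). Il18r1 and Maf did not pass against Gzmb-high cells without Csf3r+/+ library 1 (adjusted p = 0.063 and 0.072).

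NK receptors and their adaptors were mostly lower than in Gzmb-high cells. Of 19 genes tested, 16 were lower than in Gzmb-high cells and none higher, with a median log2 fold change of -2.12. Against the other Cd3e-positive cells 9 of 21 were lower and none higher. Without Csf3r+/+ library 1 the counts were 9 of 17 lower than in Gzmb-high cells, with Klra1, Klra3, Klra6, Klra7 and Klri2 not passing, and 7 of 21 lower than in the other cells, with Klra5, Klrb1a and Klrb1f not passing and Klre1 higher (0.78, adjusted p = 0.0033, edgeR). Ncr1, the gene of the activating receptor NKp46, had 0 UMIs in the 319 members, which allows up to 0.94% of members with a UMI. At the level of the other cells 58.7 UMIs would have been counted and at that of Gzmb-high cells 126, so that with a floor of 3 UMIs over all members Ncr1 was at least 19.6-fold lower than in the former and at least 42.1-fold lower than in the latter. Csf3r+/+ library 1 decided these bounds, and without it 10.8 and 19.1 UMIs would have been counted, which gives bounds of at least 3.60-fold and at least 6.36-fold lower. Tyrobp, the signaling adaptor DAP12, was at 25.3, 14.4, 5.82 and 25.6 CPM against 191, 113, 80.5 and 104 CPM in the other cells and 433, 88.4, 259 and 225 CPM in Gzmb-high cells. Its log2 fold changes were -2.84 ± 0.25 SE and -3.85 ± 0.26 (adjusted p = 1.5e-07 and 2e-06, edgeR). Klra9, a Ly49 gene, was at 17.3, 31.8, 0 and 4.26 CPM against 393, 441, 352 and 400 CPM in Gzmb-high cells (-4.71 ± 0.28, adjusted p = 6.7e-07). Both genes were lower in each library, but Ly49 genes are near copies of each other, so that which of them was counted is uncertain. Klrd1 (CD94) was nearer to the Gzmb-high cells (-1.22 ± 0.16, adjusted p = 0.00027) and did not pass against the other cells (-0.42, adjusted p = 0.1, edgeR), where it was lower after matching on UMIs (-0.64, adjusted p = 0.0092).

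Genes induced by interferon were lower too, mainly against Gzmb-high cells. There, 17 of 19 were lower and none higher (13 without Csf3r+/+ library 1), while 8 of 19 were lower against the other Cd3e-positive cells. The latter count was 5 without Csf3r+/+ library 1 (Ifi204, Ifit3 and Irf7 not passing, and Ifi27l2a higher) and 5 after matching on UMIs (Ifi204, Ifit1 and Ifit3 not passing). Without barcodes that carried macrophage or B cell transcripts 11 were lower against Gzmb-high cells, and 3 were lower and 1 higher against the other cells. Isg15, a ubiquitin-like interferon-induced gene, was at 196, 124, 390 and 187 CPM against 664, 406, 1172 and 449 CPM in Gzmb-high cells (log2 fold change -1.68 ± 0.13 SE, adjusted p = 7.3e-06, edgeR). Ifitm3, an antiviral membrane gene, was at 28, 54.8, 17.4 and 12.8 CPM against 394, 454, 433 and 435 CPM (-3.89 ± 0.22, adjusted p = 6.7e-07). Both were lower in each library, although Isg15 varied more between the libraries of the Gzmb-high cells than Ifitm3 did. Genes of recent stimulation were counted likewise, with 12 of 17 lower and 1 higher (Nr4a2) against Gzmb-high cells and 10 of 18 lower and 1 higher against the other cells. After matching on UMIs 5 of 17 were lower than in the other cells, and Cd69, Fosb, Jun, Nr4a1 and Tnfaip3 did not pass. Without Csf3r+/+ library 1, Egr1 (-0.89, adjusted p = 0.145) and Fosb (-0.70, adjusted p = 0.084, edgeR) did not pass against Gzmb-high cells. Junb, an AP-1 gene, was at 652, 1813, 907 and 2190 CPM against 1438, 3000, 2904 and 4522 CPM in the other cells (-1.21 ± 0.14, adjusted p = 3.7e-06, edgeR). Of 10 heat shock genes, which respond to stress during tissue dissociation, 3 (Hspa1a, Hspa1b and Dnaja1) were lower than in the other cells and 4 lower than in Gzmb-high cells. After matching on UMIs 0 of the 10 passed against the other cells (these 3 had adjusted p = 0.20, 0.14 and 0.073, edgeR), and without Csf3r+/+ library 1 Hspa1b did not pass against Gzmb-high cells (adjusted p = 0.072).

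Among receptors that guide and hold T cells in tissue more were lower than higher. Of 20 homing and adhesion receptors tested against the other Cd3e-positive cells, 10 were lower, among them Ccr6, Cxcr6, Itgae and Cd44, and 3 were higher, among them the integrin genes Itga4 and Itgb1. Itgae (-1.19, adjusted p = 0.17) and Cd44 (-0.62, adjusted p = 0.077) did not pass after matching on UMIs, where 4 of 16 receptors were lower. Itga4 was also higher than in Gzmb-high cells (log2 fold change 1.42, adjusted p = 0.00037, edgeR). Of 10 cytokine genes tested, Tnf, Lta, Ltb and Il17a were lower and Il10 was higher. Tnf did not pass after matching on UMIs (-0.95, adjusted p = 0.087), and Lta did not pass without Csf3r+/+ library 1 (-1.17, adjusted p = 0.056, edgeR). Il10 rested on 19 UMIs, at 16, 0, 17.4 and 17 CPM against 0.771, 0.684, 0.429 and 2.69 CPM (3.43 ± 0.69 SE, adjusted p = 0.0017, edgeR), and did not pass without Csf3r+/+ library 1 (2.83, adjusted p = 0.077). Of 9 regulatory T cell genes tested, 2 were higher (Ctla4 and, resting on Csf3r+/+ library 1 as above, Ikzf2) and 4 lower (Il2ra, Capg, Tnfrsf18 and Nrp1, the last 2 of them not after matching on UMIs), with Il2ra, the interleukin-2 receptor α chain, at 0, 11.5, 17.4 and 17 CPM against 42.3, 31.6, 70.2 and 92.4 CPM (-2.78 ± 0.40, adjusted p = 6.1e-05). Of 11 T cell receptor complex and coreceptor genes, Cd247 was higher and Thy1 lower. Without Csf3r+/+ library 1 Cd247 did not pass (0.45, adjusted p = 0.20), while Cd8a (2.83, adjusted p = 0.014) and Cd8b1 (1.36, adjusted p = 0.0033) passed as higher and Cd3g (-0.49, adjusted p = 0.013, edgeR) as lower, and Thy1 did not pass after matching on UMIs (-0.49, adjusted p = 0.054, edgeR). Cd8a had 3, 0, 0 and 11 UMIs in members, so that its call rested on Csf3r-/- library 2 alone.

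**Figure D4:**
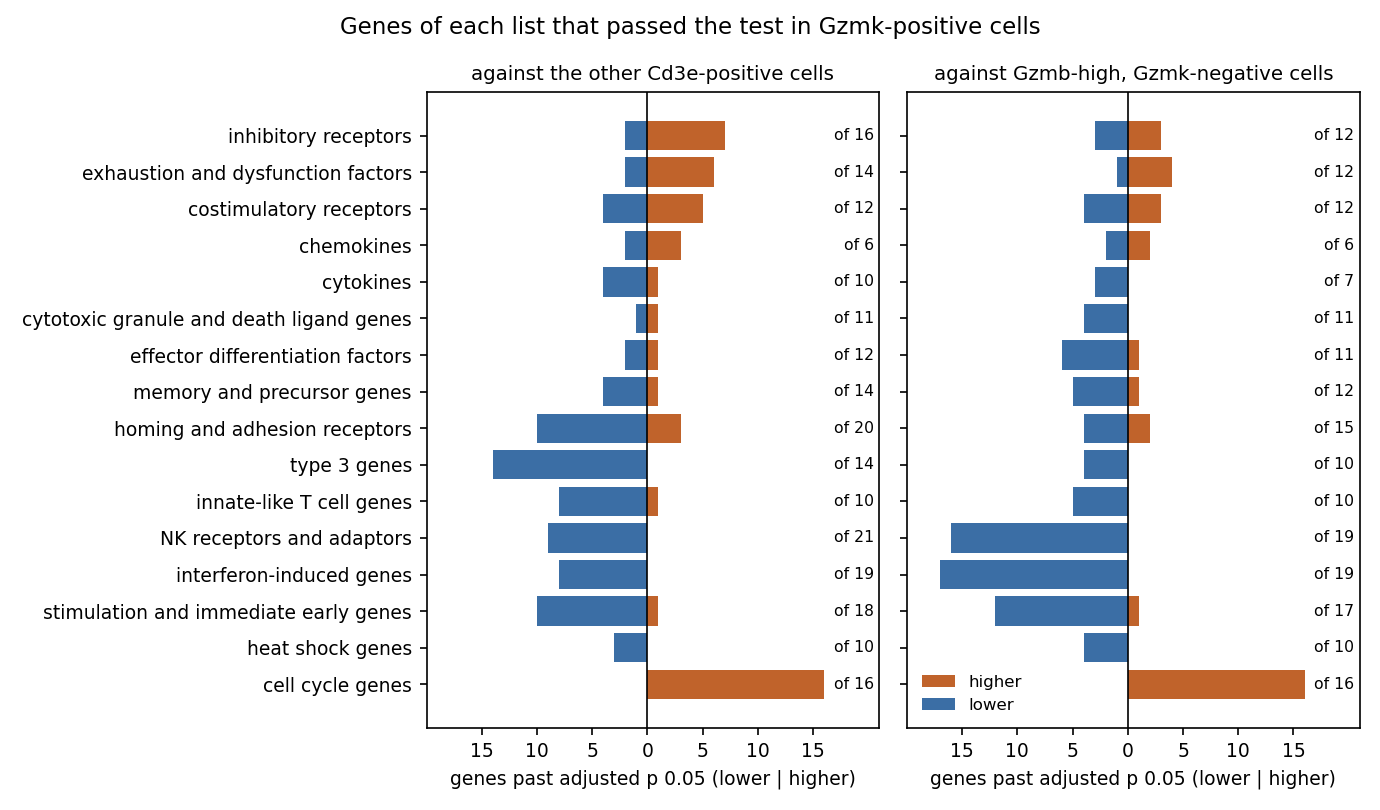
Number of genes of each list (y axis) that passed an adjusted p of 0.05 as lower (blue, left) or higher (orange, right) in Gzmk-positive cells, against the other Cd3e-positive cells (left) and Gzmb-high cells (right), with the number tested beside each bar. All 16 cell cycle genes are higher and 16 of 19 NK receptor genes are lower than in Gzmb-high cells.

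All 16 cell cycle genes tested were higher against both sets, with median log2 fold changes of 1.67 and 1.45. Without Csf3r+/+ library 1, Mki67 (0.95, adjusted p = 0.14) and Pcna (0.73, adjusted p = 0.055, edgeR) did not pass against Gzmb-high cells. Stmn1, a microtubule regulator of dividing cells, was at 809, 384, 686 and 652 CPM against 335, 103, 153 and 117 CPM in the other Cd3e-positive cells (1.87 ± 0.17 SE, adjusted p = 1.7e-07, edgeR). Top2a, the topoisomerase of replicating DNA, was at 156, 104, 140 and 149 CPM against 75.5, 36.2, 49 and 35 CPM (1.44 ± 0.19, adjusted p = 1.5e-05). Both were higher in each library. Depth moved with this group. When the other cells were matched to the members on UMIs, 8 of the 16 genes passed, with Stmn1 at 0.69 (adjusted p = 0.04) and Top2a at 0.47 (adjusted p = 0.19, edgeR), and 2 passed when cells were thinned to 1500 UMIs. Against Gzmb-high cells 4 of these genes could be tested after thinning and 0 passed. In contrast Gzma, Lag3, Pdcd1, Rgs16, Tox and Eomes passed after matching (adjusted p from 7.4e-07 to 0.00039, edgeR). Their log2 fold changes were then 3.65, 3.16, 2.47, 3.44, 2.21 and 2.35. Over all alternative settings, however, Pdcd1 and Eomes did not always pass against the other cells (largest adjusted p = 0.21 and 0.062, edgeR or DESeq2). Gzma, Lag3 and Rgs16 did (largest 0.032, 0.044 and 0.031). Against Gzmb-high cells Lag3 and Pdcd1 did not always pass (largest 0.13 and 0.087).

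Markers of other cells were measured beside these results. Cd3d, a chain gene of the T cell receptor complex, was at 1129, 1192, 1175 and 1197 CPM in members and at 1185, 1031, 1163 and 1092 CPM in the other Cd3e-positive cells (log2 fold change 0.00, adjusted p = 1, edgeR). Cd4, absent by the sort, was detected in 0%, 3.5%, 0% and 0% of members and Cd8a in 1.2%, 0%, 0% and 4.9%, but Cd8b1 was found in 2.5%, 3.5%, 17.9% and 14.8% of members and in 4.18%, 1.59%, 6.63% and 5.1% of the other cells. At 1500 UMIs per cell the Cd8b1 shares were 0.625%, 1.75%, 8.11% and 10.3% against 2.02%, 0.751%, 3.86% and 3.54%. Members were thus above the other cells in 3 libraries and below them in Csf3r+/+ library 1, on 1, 1, 3 and 6 members with a UMI at that depth. The 17 macrophage and dendritic cell markers found in the matrix summed to 264, 294, 1157 and 2961 CPM in members and 491, 1045, 1100 and 3139 CPM in the other cells, with Flt3 and Xcr1 at 0 in members. Apoe led in the mean of the members through Csf3r-/- library 2 (20, 43.3, 69.8 and 1150 CPM). Of 11 tested, 1 was higher (Cd68, which did not pass without Csf3r+/+ library 1 at 1.36, adjusted p = 0.29, edgeR) and 4 lower, and after matching on UMIs 10 were lower. The 8 B and plasma cell markers found in the matrix summed to 6.67, 11.5, 105 and 12.8 CPM against 17.5, 20, 86.6 and 21.4 CPM, with Mzb1 and Pax5 at 0. Among 9 NK cell defining markers, 2 were higher (Eomes and Gzma) and 5 lower, with Ncr1 and Klra8 at 0. Of 3 γδ T cell markers tested 1 was lower. Neutrophil and mast cell markers were at 0 in 9 of 12 and fibroblast markers in 10 of 12. The neutrophil and mast cell markers summed to 22.7, 5.77, 0 and 4.26 CPM in members against 6.28, 8.25, 2.79 and 5.56 CPM. In Csf3r+/+ library 1 the neutrophil marker Ltf had 16 UMIs in members and 4 in the other cells. The part of these transcripts in genotype differences was not tested except by the values without such barcodes.

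Between genotypes, no gene passed in Gzmk-positive cells. Of 3695 genes tested in the members of Csf3r-/- against Csf3r+/+ libraries, 0 (0%) passed with edgeR, 181 had an unadjusted p under 0.05, and DESeq2 called 17. Pdcd1 was at 433 and 378 CPM in Csf3r+/+ and 302 and 567 CPM in Csf3r-/- members, which overlapped (log2 fold change 0.10 ± 0.37 SE, adjusted p = 1). Ifng was at 329 and 162 against 122 and 111 CPM, without overlap and short of the threshold (-1.10 ± 0.39, adjusted p = 0.76, edgeR). The contrast between members and other cells differed by genotype for 8 of 9900 genes (0.0808%), 6 (0.0606%) with a higher and 2 (0.0202%) with a lower contrast in Csf3r-/- libraries. For Pdcd1 the log2 contrast was smaller in Csf3r-/- libraries by -2.22 ± 0.32 (adjusted p = 0.012, edgeR). Within the libraries the log2 ratios, with 20 CPM added, were 3.05, 2.99, 1.74 and 0.94. In the other Cd3e-positive cells Pdcd1 was at 34.6 and 30.2 CPM in Csf3r+/+ and at 76.4 and 286 CPM in Csf3r-/- libraries, without overlap. The levels of the members overlapped. A difference between genotypes in the other cells was not tested. Pdcd1 did not pass this test without Csf3r-/- library 1 (-2.62, adjusted p = 0.24) or without Csf3r-/- library 2 (-1.71, adjusted p = 0.29). No gene passed it without Csf3r-/- library 1, after matching on UMIs (Pdcd1 at -1.75, adjusted p = 0.48) or after thinning (edgeR).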

How the data were processed

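The libraries were made from sorted UTCαβ with the 10x Chromium 3' kit, and per the labels they were processed with bcl2fastq, Cell Ranger, R 3.4.4 and Seurat 2.3.4 on mm10. The authors deposited 1 matrix of raw UMI counts per genotype, and the number after each barcode separates its 2 libraries. The methods describe separate tumors, and no source used here ties a number to an animal, so p-values measure the spread between libraries.

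The members and the gene lists (25 lists, 316 of 335 genes found among 27998) were chosen with earlier results of these data known. Barcodes were kept from 200 genes upward, up to 20000 UMIs, and up to a mitochondrial share of 10%. Doublets were not removed, and no doublet caller was run. Counts were summed per library and set of cells (at least 10 cells each), filtered with filterByExpr, normalized with TMM and tested with edgeR 4.0.16 (R 4.3.3), with the library as a block where sets of 1 library were compared, since both sets then come from the same library. Adjusted p-values are Benjamini-Hochberg values over all genes tested, with a threshold of 0.05. Each fit was checked on simulated counts in which 200 genes changed by a log2 of 2. Their dispersion was fixed at 0.05, and libraries were made to differ in depth only. edgeR recovered 78.5% of the changed genes against the other cells, 87% against Gzmb-high cells and 80% between genotypes. For the contrast by genotype it recovered 21%, so that most such changes were missed there. The check does not cover the spread between the real libraries. Genes are named from the lists and, by a ranking rule, as the 12 (other cells) or 10 (Gzmb-high cells) most changed per direction that passed, had 1 sign in every library and reached a mean of 50 CPM. Where fewer than 5 passed in a direction, as by genotype, those are named. Thinning drew 1500 UMIs per cell without replacement, which left out 1718 shallower cells, 7 of them members. Alternatives were DESeq2 1.42.0, no filter, at least 2 Gzmk UMIs, no limit on Cd3e for the share, thinning, matching on UMIs, the study's limits on genes (3500 and 4000 genes), omission of barcodes with macrophage or B cell transcripts, no block, and omission of each library. Apoe, Cd74 and MHC class II genes were not among the macrophage and B cell markers used to choose barcodes. Promoter windows were read from RefSeq (GRCm38.p6). A few genes are not reported here.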

Additional observations from a re-analysis of the deposited data

Results flagged for a closer look

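The contrast between Gzmk-positive and other Cd3e-positive cells differed between genotypes for 8 genes by the edgeR test of the difference itself (interaction, Benjamini-Hochberg adjustment), in log2 as Csf3r-/- minus Csf3r+/+. It was lower for Pdcd1 (-2.22, adjusted p = 0.012) and Zeb2 (-2.81, adjusted p = 0.029), a transcription factor gene of effector T cells. For Zeb2 the members were at 24, 66.4, 34.9 and 46.9 CPM, which overlapped between genotypes, whereas the other cells were at 10.4, 13.8, 63.1 and 106 CPM. It was higher for Klra1 (2.33, adjusted p = 0.012), Ly6c2 (1.69, adjusted p = 0.0064) and Ms4a4b (1.47, adjusted p = 0.026). Klra1, a Ly49 gene with near copies, was at 188, 110, 180 and 273 CPM in members and 361, 293, 100 and 96.5 CPM in the other cells, and again only the other cells were without overlap. Ly6c2 was at 809, 1120, 2338 and 912 CPM in members and 1849, 2201, 1330 and 684 CPM in the other cells.

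The MHC class II genes H2-Ab1 (3.29, adjusted p = 0.029) and H2-Aa (2.83, adjusted p = 0.029) and the invariant chain gene Cd74 (3.22, adjusted p = 0.0064) also had a higher contrast. H2-Ab1 was at 5.33, 5.77, 122 and 192 CPM in members and 29.2, 114, 108 and 224 CPM in the other cells. Cd74 was at 5.33, 26, 448 and 469 CPM in members and 46, 185, 281 and 508 CPM in the other cells. The 13 macrophage and dendritic cell markers other than MHC class II genes and Cd74 summed to 248, 231, 372 and 2045 CPM in members and 382, 554, 551 and 2056 CPM in the other cells. Without barcodes that carried macrophage or B cell transcripts the value was 0.64 for Cd74, -1.58 for H2-Ab1 and -1.89 for H2-Aa. None of the 8 genes passed after matching on UMIs or thinning.

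Gzmk was also found in 62 of 11050 barcodes without a Cd3e UMI, which lie outside the members. With these barcodes included, the shares of barcodes with Gzmk were 4.97%, 0.652%, 0.656% and 0.799% and Csf3r-/- minus Csf3r+/+ was -2.08 points (two-sided exact permutation test, p = 1). Their share was 2.16% (16 of 741) in Csf3r+/+ library 1, 0.357% (18 of 5047) in Csf3r+/+ library 2, 0.41% (8 of 1953) in Csf3r-/- library 1 and 0.604% (20 of 3309) in Csf3r-/- library 2. Of these barcodes 93.8%, 100%, 75% and 95% carried Ccl5 and 93.8%, 61.1%, 50% and 55% carried Gzmb.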

How the results depend on the processing

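Against the other Cd3e-positive cells, where edgeR called 888 genes, DESeq2 called 581, thinning 184, omission of barcodes with macrophage or B cell transcripts 534 and matching on UMIs 357. Against Gzmb-high cells, where 678 were called, DESeq2 called 435, no filter 1033, thinning 108 and omission of those barcodes 313. Between genotypes, where none was called, DESeq2 called 17, no filter 108, at least 2 Gzmk UMIs 3 and thinning 2. For the contrast by genotype, where 8 were called, DESeq2 called 5, no filter 44, at least 2 Gzmk UMIs 39, omission of those barcodes 39, thinning 0 and matching 0. With each library left out in turn the counts ranged from 629 to 1119, from 470 to 546, from 0 to 157 and from 0 to 75 in these 4 comparisons. The share difference ranged from -4.88 to -0.0619 points and was -1.54 with at least 2 Gzmk UMIs. Between genotypes omission of Csf3r+/+ library 1 gave 157 genes, of Csf3r+/+ library 2 130 and of Csf3r-/- library 1 31. For the contrast by genotype, omission of the Csf3r+/+ libraries gave 75 and 64 genes and of the Csf3r-/- libraries 0 and 7. Each left-out library leaves 1 library in its genotype, which is then assumed to vary like the others.

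Without the replicate block for the library, 49 genes were called against the other Cd3e-positive cells and 75 against Gzmb-high cells, all of them also called with it. Between genotypes the deviations of same-numbered libraries had r = 0.048, and a replicate block called 0 genes. With 2 libraries per genotype this r cannot show whether same-numbered libraries belong together, and no label ties them. Of the 888 genes, 567 were also called by DESeq2 with the same sign. Thinning reversed Tuba1b (-0.20), Pcna (-0.37), H2-Eb1 (0.50) and C1qa (0.55) against the other cells and Il18r1 (0.011) against Gzmb-high cells, and shifted the median of all genes against the other cells from -0.09 to -0.35, and the fit without a filter shifted it to -0.42. Omission of barcodes with macrophage or B cell transcripts reversed H2-Ab1 (-1.58) and H2-Aa (-1.89) by genotype. The cause of these changes was not tested, but thinned fits held fewer counts and genes.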
